A study of Mus musculus with 2 samples.

Results

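In all, 10 genes of apoptotic cell clearance and scavenging were followed through single cells of injured mouse spinal cord: the TAM receptors Mertk, Axl and Tyro3, their bridging ligands Gas6 and Pros1, and the scavenger receptors Msr1, Mrc1, Stab1, Lrp1 and Scarb1. They were chosen by symbol, and all 10 were found among the 31053 genes listed. The cells came from cord collected 5 days after the injury. Treatment was an HDAC3 inhibitor in 1 library and vehicle in the other. HDAC3 is a histone deacetylase that acts in corepressor complexes. The compound, the strain, sex and age of the mice, the kind of injury and the number of animals behind a library are not given in the sources used here. With 1 library in each group there is no replicate check, so libraries and not treatments are compared, no test was made, and every 95% interval below covers counting error only.

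TAM receptors are receptor tyrosine kinases that do not touch the dying cell themselves. Gas6 and protein S, the product of Pros1, bind phosphatidylserine on the dying cell at a part of the molecule separate from the one that binds the receptor, after a vitamin K-dependent modification, and so bridge the eater and its meal. Mertk is the main TAM receptor of efferocytosis in resting macrophages, Axl is raised by inflammatory signals, and Tyro3 is best known in the nervous system. Scavenger receptors take up modified lipoproteins, glycoproteins and debris: Msr1 is the class A scavenger receptor, Mrc1 the mannose receptor CD206, Stab1 the endocytic receptor stabilin-1, Lrp1 a large endocytic receptor with many ligands, myelin debris among them, and Scarb1 the HDL receptor SR-BI. In the spinal cord, microglia, macrophages drawn from blood into the lesion and the long-lived macrophages of the meninges and vessels share this work.

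After filtering, 2954 cells with 37774673 UMIs were kept in the HDAC3 inhibitor library and 2164 cells with 28991181 UMIs in the vehicle library. A UMI is a molecular tag that counts 1 captured transcript. Values in pairs below are in the order HDAC3 inhibitor, vehicle, and ratios between the libraries are HDAC3 inhibitor over vehicle. Levels are CPM, the gene's share of all UMIs of a class, summed over its cells and scaled to a common total of 1000000, and names end in "-like" because they rest on marker genes alone. The 10 genes were kept out of the clustering and out of every marker list. Microglia-like cells numbered 462 and 483 (median 10547.5 and 11998 UMIs per cell), lesion macrophage-like cells 525 and 251 (23655 and 27816), and border-associated macrophage-like cells 112 and 49 (9707 and 11958). All 10 microglia markers reached 20 CPM in microglia-like cells, P2ry12 at 495 and 527 CPM against 14.0 and 14.6 in lesion macrophage-like cells. Gpnmb was at 5277 and 5658 CPM in lesion macrophage-like cells and at 268 and 358 in microglia-like cells. The 10 lesion macrophage markers together summed to 18758 and 17313.6 CPM against 3717 and 4138, but 2 of them were higher in microglia-like cells, Fn1 (178 and 135 CPM against 108 and 65.9) and Cd9 (2020 and 2219 against 1584 and 1682). Cd163 and Lyve1 were at 126 and 126 CPM and at 160 and 195 CPM in border-associated macrophage-like cells, and at or under 0.152 CPM in the other 2 classes. The 9 border-associated markers summed to 1927 and 2556 CPM there. They summed to 548 and 383 in lesion macrophage-like cells and to 61.2 and 40.7 in microglia-like cells. Of these 9 markers, 7 and 9 reached 20 CPM in the border-associated class. Siglec1 was not firmly theirs (17.9 and 46.7 CPM against 40.5 and 36.6 in lesion macrophage-like cells). Cd209f was at 0.779 and 22.5 CPM in the border-associated class. F13a1 was at 279 and 298 CPM there, against 205 and 201 in lesion macrophage-like cells. At a finer clustering, 24 and 11 of the border-associated cells formed a group of their own with dendritic cell markers that had no name. In each library 4 barcodes of the kept cells occurred in both libraries.

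The promoters of 8 of the 10 genes are in the RefSeq table used here (build GRCm38.p6), and Msr1 and Scarb1 have no entry in it. Shown are the 250 bases before the start of Mrc1 and Stab1, which were highest in border-associated macrophage-like cells, of Mertk, highest in microglia-like cells, and of Tyro3, which was nearly absent from macrophages. Each is written 5′ to 3′ on the gene's strand, and capitals mark GAGGAA on either strand (TTCCTC on the printed one), a core of the sites that the myeloid factor PU.1 and other ETS factors bind.
Mrc1, chr2:14229164-14229413, plus strand: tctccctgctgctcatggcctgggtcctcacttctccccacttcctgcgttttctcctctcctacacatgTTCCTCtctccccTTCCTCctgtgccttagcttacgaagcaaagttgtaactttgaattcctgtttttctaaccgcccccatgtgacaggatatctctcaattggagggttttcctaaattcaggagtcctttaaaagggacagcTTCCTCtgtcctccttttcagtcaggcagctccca
Stab1, chr14:31168642-31168891, minus strand: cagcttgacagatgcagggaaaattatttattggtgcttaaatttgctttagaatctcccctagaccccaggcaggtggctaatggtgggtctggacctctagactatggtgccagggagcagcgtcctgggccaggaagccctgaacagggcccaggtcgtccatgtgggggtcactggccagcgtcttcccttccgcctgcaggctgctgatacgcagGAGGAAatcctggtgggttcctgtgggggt
Mertk, chr2:128698665-128698914, plus strand: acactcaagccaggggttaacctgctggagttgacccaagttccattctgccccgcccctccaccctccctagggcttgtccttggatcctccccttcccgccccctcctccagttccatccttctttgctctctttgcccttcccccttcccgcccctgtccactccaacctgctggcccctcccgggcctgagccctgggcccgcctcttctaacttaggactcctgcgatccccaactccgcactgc
Tyro3, chr2:119799264-119799513, plus strand: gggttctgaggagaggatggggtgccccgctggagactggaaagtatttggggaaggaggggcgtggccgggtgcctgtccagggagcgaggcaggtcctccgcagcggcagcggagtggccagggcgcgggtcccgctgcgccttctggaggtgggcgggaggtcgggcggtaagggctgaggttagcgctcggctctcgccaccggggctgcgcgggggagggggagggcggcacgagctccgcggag
GAGGAA occurred 3 times in the Mrc1 window, starting 180, 167 and 35 bases before the RefSeq start, 1 time in the Stab1 and Axl windows, and 0 times in the windows of Mertk, Tyro3, Gas6, Pros1 and Lrp1. Of all 32817 promoter windows of this length, 23.3% hold it. CpG dinucleotides stood at 0.220 of the number that base composition would give in Mrc1, 0.249 in Stab1 and 0.233 in Axl, against 0.813 in Tyro3, 0.747 in Lrp1 and a median of 0.373 over all windows. The GC share was 49.6% in Mrc1 and 73.2% in Tyro3, with a median of 52.4% over all windows. A match is a description of these letters and not a bound site.

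**Figure D1:**
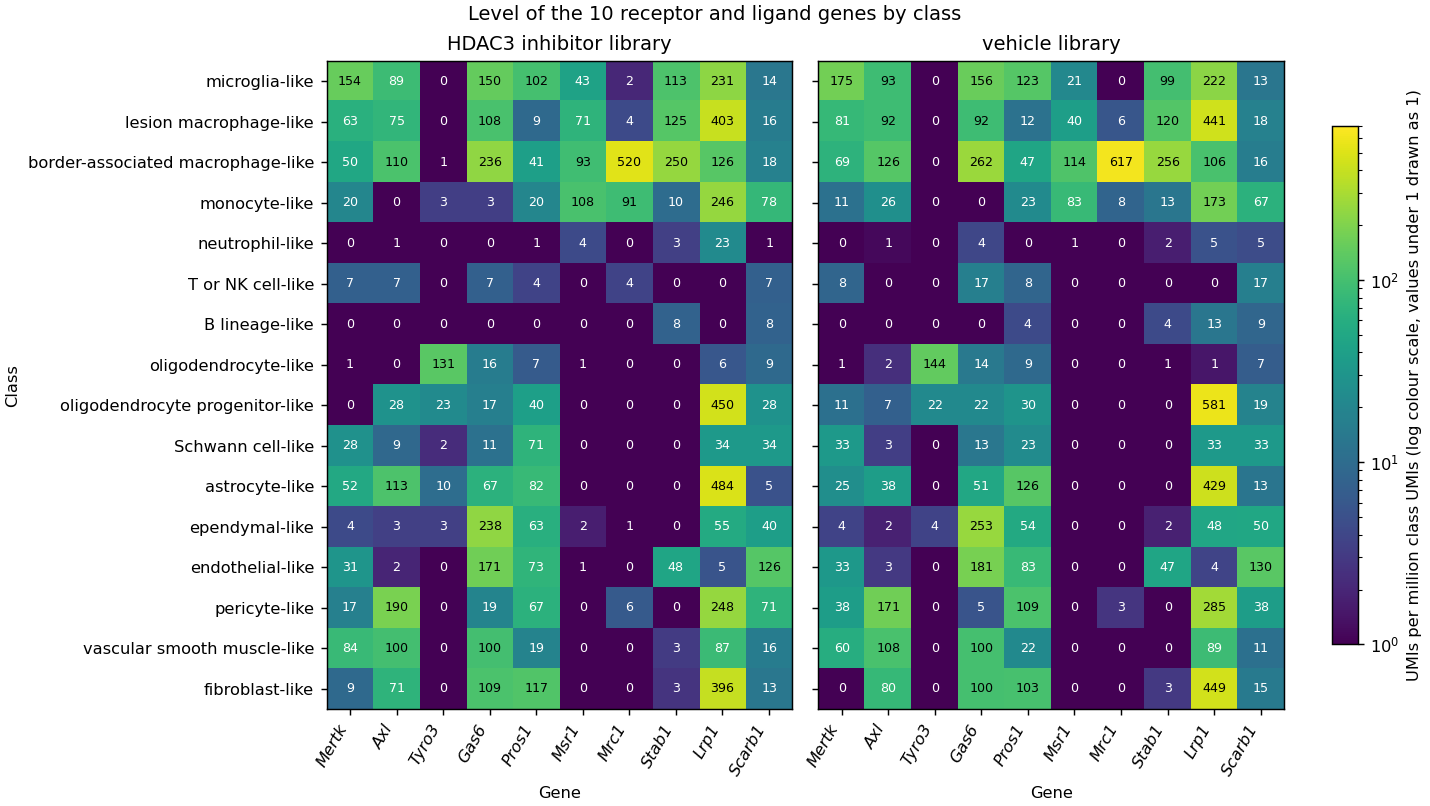
Level of the 10 genes (columns, CPM, log colour scale with the value printed in each cell) in each named class (rows), with 1 panel for each library. Mrc1 stands out in border-associated macrophage-like cells (520 and 617), Tyro3 in oligodendrocyte-like cells (131 and 144), and the same rows are bright in both panels.

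Mertk (ENSMUSG00000014361, GRCm38 chromosome 2, 128698956 to 128802894, plus strand) was highest in microglia-like cells. Its level there was 154 CPM (95% interval 144 to 165, 820 UMIs) and 175 CPM (165 to 185, 1154 UMIs). Lesion macrophage-like cells held 63.5 and 81.4 CPM and border-associated macrophage-like cells 49.8 and 69.2 CPM. The 3 classes therefore did not share it alike: microglia-like cells were 2.42-fold (2.20 to 2.68) and 2.15-fold (1.95 to 2.38) above lesion macrophage-like cells, and 3.09-fold and 2.53-fold above border-associated ones. Vascular smooth muscle-like cells (84.1 and 59.5 CPM, from 27 and 16 UMIs) did not differ from lesion macrophage-like cells beyond counting error, and exceeded border-associated cells beyond it in the HDAC3 inhibitor library alone. Endothelial-like cells held 30.7 and 32.8 CPM. Neutrophil-like cells held 0 UMIs of Mertk among 176 and 213 cells, with upper ends of 3.22 and 2.11 CPM. A Mertk UMI was seen in 72.3% and 76.6% of microglia-like cells and, at a higher depth, in 68.4% and 81.7% of lesion macrophage-like cells. Thinned to 2000 UMIs per cell, the shares were 28.3% and 30.9% against 11.9% and 13.5%.

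Axl (ENSMUSG00000002602, chromosome 7, 25757273 to 25788705, minus strand) was spread more evenly over the macrophages and was highest in pericyte-like cells, a mural class. Pericyte-like cells held 190 and 171 CPM, border-associated macrophage-like cells 110 and 126, vascular smooth muscle-like cells 99.7 and 108, microglia-like cells 89.0 and 92.7, and lesion macrophage-like cells 74.9 and 92.0. For each pair of neighbours in this order the interval of their ratio held 1 in at least 1 library, so the order is not firm. The ratio of microglia-like to lesion macrophage-like cells was 1.19 (1.06 to 1.33) and 1.01 (0.902 to 1.13). Astrocyte-like cells held 113 and 37.9 CPM from 22 and 3 UMIs. Fibroblast-like cells held 71.4 and 79.8 CPM, while endothelial-like cells, which lie next to the mural cells, held 1.97 and 2.98 CPM from 9 and 11 UMIs.

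Tyro3 (ENSMUSG00000027298, chromosome 2, 119797733 to 119818104, plus strand) was found, among the cells captured, mostly in oligodendrocyte-like cells. They held 636 of its 663 UMIs in the HDAC3 inhibitor library and 481 of 510 in the vehicle library, which is 95.9% and 94.3%, at 131 CPM (121 to 142) and 144 CPM (131 to 158). Oligodendrocyte progenitor-like cells followed at 22.8 and 22.4 CPM from 4 and 6 UMIs. No class of neurons was named and astrocyte-like cells numbered 30 and 15, so these shares do not cover the whole cord. The 3 macrophage classes together held 3 UMIs in 1 library and 1 in the other. In microglia-like cells the upper ends were 1.05 and 0.560 CPM, so a level above these was not seen at this depth.

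The plot of levels in the macrophage classes sets these receptors beside their ligands and the scavenger receptors.

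**Figure D2:**
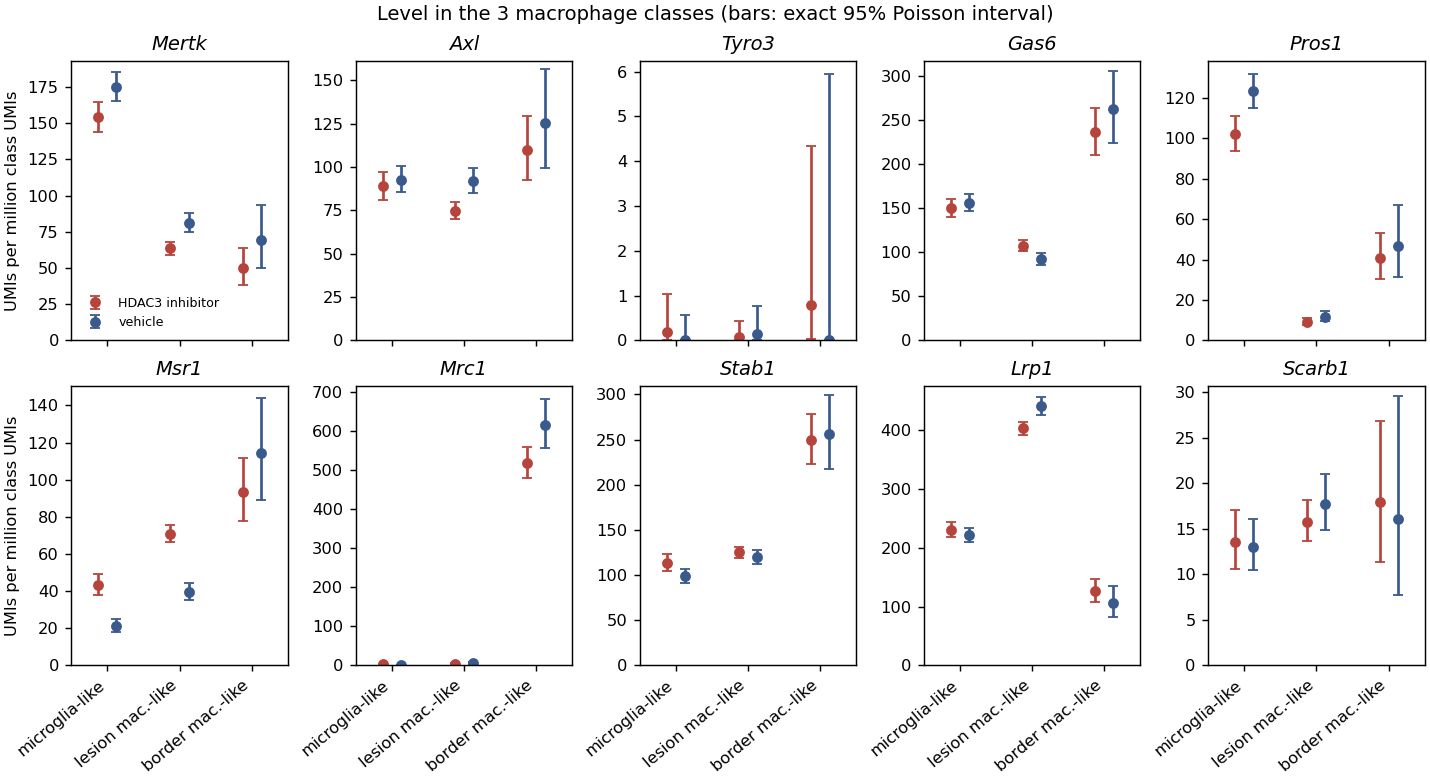
Level of each gene (y axes, CPM, starting at 0 and scaled per gene) in the 3 macrophage classes (x axis), with red for the HDAC3 inhibitor library, blue for vehicle and bars for exact 95% Poisson intervals. Mertk and Pros1 are highest in microglia-like cells, Lrp1 in lesion macrophage-like cells, and Gas6, Msr1, Mrc1 and Stab1 in border-associated macrophage-like cells. Msr1 is where red lies well above blue, at 43.2 against 21.2 in microglia-like cells and 71.0 against 39.6 in lesion macrophage-like cells.

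The 2 bridging ligands were divided differently. Gas6 (ENSMUSG00000031451, chromosome 8, 13465374 to 13494490, minus strand) was found at unequal levels in several classes, macrophage-like, ependymal-like and endothelial-like cells among them. Border-associated macrophage-like cells held 236 CPM (210 to 264) and 262 CPM (224 to 306), and ependymal-like cells 238 and 253, with no difference between the 2 classes beyond counting error. Endothelial-like cells held 171 and 181 CPM, microglia-like cells 150 and 156, and lesion macrophage-like cells 108 and 92.3. Fibroblast-like cells held 109 and 100 CPM. Vascular smooth muscle-like cells held 99.7 and 100 CPM and did not differ from lesion macrophage-like cells beyond counting error. In the vehicle library 1 cell carried 17.8% of the border-associated class's Gas6 UMIs.

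Pros1 (ENSMUSG00000022912, chromosome 16, 62854307 to 62929346, plus strand) separated microglia-like from lesion macrophage-like cells sharply. Microglia-like cells held 102 CPM (93.5 to 111) and 123 CPM (115 to 132), and lesion macrophage-like cells 9.31 (7.70 to 11.1) and 11.7 (9.39 to 14.5). The difference was 10.95-fold (8.96 to 13.5) and 10.5-fold (8.39 to 13.3). Border-associated macrophage-like cells lay between them at 40.5 and 46.7 CPM. Outside the macrophages, fibroblast-like cells held 117 and 103 CPM, and astrocyte-like cells 82.5 and 126 CPM from 16 and 10 UMIs. Pericyte-like cells held 66.8 and 109 CPM, endothelial-like cells 72.9 and 82.8 CPM, and ependymal-like cells 63.0 and 53.5 CPM. A Pros1 UMI was seen in 58.7% and 68.5% of microglia-like cells and in 17.1% and 28.7% of the deeper lesion macrophage-like cells, and after thinning in 22.4% and 21.1% against 1.15% and 1.99%. Neutrophil-like cells, which served as the measure of free RNA for these genes, held a Pros1 UMI in 0.568% and 0 of 176 and 213 cells, at median depths of 4076.5 and 6802 UMIs.

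Among the scavenger receptors, Mrc1 (ENSMUSG00000026712, chromosome 2, 14229392 to 14332057, plus strand) marked the border-associated macrophage-like cells, although it took no part in defining them. They held 520 CPM (481 to 560) and 617 CPM (556 to 682), which was 85.4% and 85.7% of all its UMIs. Lesion macrophage-like cells held 4.34 and 5.73 CPM, a difference of 120-fold (90.9 to 161) and 108-fold (78.1 to 152). Microglia-like cells held 2.06 and 0.455 CPM, from 11 UMIs in 4 cells and 3 UMIs in 3 cells. A Mrc1 UMI was seen in 61.6% and 69.4% of border-associated cells and in 7.05% and 6.77% of lesion macrophage-like cells, and after thinning in 43.1% and 54.2% against 1.53% and 0.398%.

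Stab1 (ENSMUSG00000042286, chromosome 14, 31139013 to 31168641, minus strand) was also highest in the border-associated class, at 250 and 256 CPM, but was well represented in the others. Lesion macrophage-like cells held 125 and 120 CPM and microglia-like cells 113 and 98.8 CPM. Endothelial-like cells, known for stabilin-1 in sinusoids, held 47.5 and 46.8 CPM. Each step of this order was larger than its counting interval in both libraries. The step from microglia-like to lesion macrophage-like cells was small, 1.10-fold (1.005 to 1.22) and 1.21-fold (1.10 to 1.35). Its mean over the libraries ran the other way in 1 of 15 alternative settings.

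Msr1 (ENSMUSG00000025044, chromosome 8, 39581685 to 39642673, minus strand) was a gene of mononuclear phagocytes, with neutrophil-like cells at 4.37 and 0.572 CPM and every non-myeloid named class at or under 1.73 CPM. Border-associated macrophage-like cells held 93.5 CPM (77.5 to 112) and 114 CPM (89.3 to 144), and monocyte-like cells 108 and 83.5 CPM, which did not differ beyond counting error. Lesion macrophage-like cells held 71.0 and 39.6 CPM and microglia-like cells 43.2 and 21.2 CPM. A Msr1 UMI was seen in 13.4% and 9.73% of microglia-like cells, in 61.7% and 49.0% of lesion macrophage-like cells and in 1.14% and 0.469% of neutrophil-like cells.

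Lrp1 (ENSMUSG00000040249, chromosome 10, 127538161 to 127621148, minus strand) was highest in lesion macrophage-like cells among the macrophage classes. Lesion macrophage-like cells held 403 CPM (392 to 414) and 441 CPM (426 to 456), microglia-like cells 231 and 222 CPM, and border-associated macrophage-like cells 126 and 106 CPM. Nearly every lesion macrophage-like cell, 97.1% and 98.8%, carried a Lrp1 UMI, and 51.2% and 56.2% did after thinning. Similar levels were found in fibroblast-like cells (396 and 449 CPM), astrocyte-like cells (484 and 429 CPM) and oligodendrocyte progenitor-like cells (450 and 581 CPM). Mature oligodendrocyte-like cells held 5.99 and 1.498 CPM and endothelial-like cells 5.48 and 3.79 CPM.

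Scarb1 (ENSMUSG00000037936, chromosome 5, 125277087 to 125341094, minus strand) was the member least tied to macrophages after Tyro3. Endothelial-like cells held 125.5 CPM (115 to 136) and 130.5 CPM (119 to 143), which was 43.8% and 48.3% of its UMIs. Monocyte-like cells followed at 77.6 and 67.1 CPM. The 3 macrophage classes held between 13.05 and 17.9 CPM and were not told apart by more than 1.5-fold in either library.

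**Figure D3:**
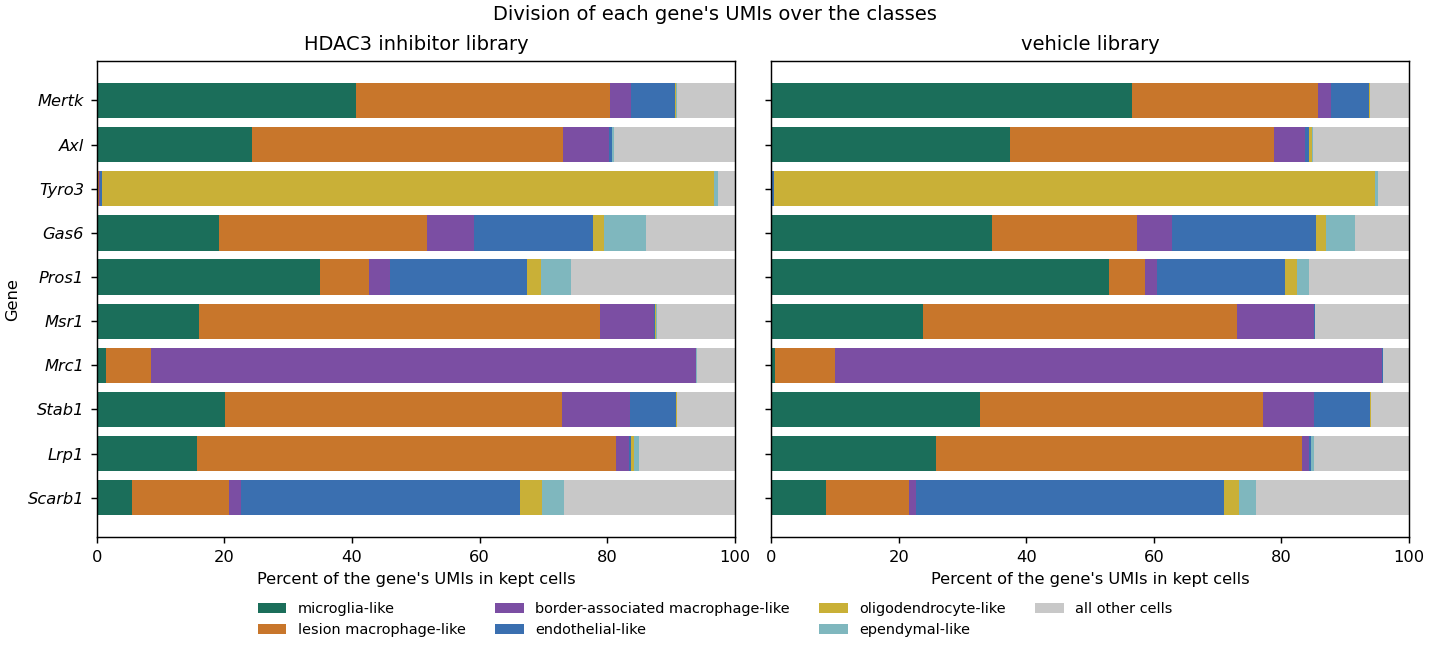
Share of each gene's UMIs in kept cells (x axis, percent) by class (colours), with 1 panel for each library. Tyro3 is nearly all oligodendrocyte-like, Mrc1 nearly all border-associated macrophage-like, and microglia-like cells hold more of each remaining gene in the vehicle library, where they were 22.3% of kept cells against 15.6%.

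Summed over the library, the 3 macrophage classes held 83.7% and 87.8% of Mertk UMIs, 80.3% and 83.7% of Axl, 87.3% and 85.1% of Msr1, 93.9% and 95.7% of Mrc1, 83.6% and 85.2% of Stab1 and 83.5% and 84.4% of Lrp1. They held less of the ligands, 59.0% and 62.9% of Gas6 and 46% and 60.5% of Pros1. Outside them, endothelial-like cells held 18.7% and 22.5% of Gas6 and 21.5% and 19.97% of Pros1. Cells without a class name held 10.4% and 5.45% of Gas6 and 13.7% and 7.18% of Pros1, and other classes held the rest. These shares move with the number of cells captured. Microglia-like cells held 40.6% and 56.5% of Mertk UMIs and lesion macrophage-like cells 39.9% and 29.2%, with lesion macrophage-like cells at 17.8% and 11.6% of kept cells.

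Between macrophage classes, a gene was counted when it was at least 2-fold apart in the same direction in both libraries, and 9 members had the 20 UMIs needed (Tyro3 did not). Of the 9, 2 were higher in microglia-like than in lesion macrophage-like cells (Mertk and Pros1) and 1 was lower (Mrc1), beside 16.4% and 6.41% of all genes in these directions and 22.9% in either. The Mrc1 difference rested on 11 and 3 UMIs in microglia-like cells. It was 2.10-fold (1.09 to 4.45) and 12.6-fold (4.03 to 63.5), so its size was uncertain. Border-associated against lesion macrophage-like cells differed in 4 of 9, with Gas6, Pros1 and Mrc1 higher and Lrp1 lower, beside 8.68% and 5.28% of all genes in these directions and 14.0% in either. Lrp1 was 3.19-fold and 4.15-fold higher in the lesion class, and Stab1 lay at the edge of the threshold, 1.996-fold and 2.13-fold higher in the border-associated class without passing it. Border-associated against microglia-like cells differed in 5 of 9, with Msr1, Mrc1 and Stab1 higher and Mertk and Pros1 lower, beside 4.46% and 7.96% of all genes in these directions and 12.4% in either. The median gene was itself 1.22-fold and 1.26-fold higher in microglia-like than in lesion macrophage-like cells. Relative to that median the Mertk difference fell under 2-fold while Msr1 and Lrp1 passed it on the lesion side, and the Gas6 difference between border-associated and lesion macrophage-like cells also fell under 2-fold. With each cell's class taken from its own markers, the Lrp1 difference between border-associated and lesion macrophage-like cells and the Mertk and Pros1 differences between border-associated and microglia-like cells were no longer counted.

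The microglia-like class held 2 clusters that differed in these genes. The smaller one made up 22.3% (103 of 462) and 21.7% (105 of 483) of the class, with Spp1 and Igf1 among its leading genes. Its 10 lesion macrophage markers summed to 7497 and 8750 CPM against 2580 and 2819 in the larger cluster, and its microglia markers to 6603 and 7580 against 8092 and 8819. Msr1 was at 144 and 65.5 CPM in the smaller cluster and at 12.7 and 8.59 in the larger one, 11.4-fold (8.31 to 15.8) and 7.63-fold (5.29 to 11.2) apart. Gas6 was 4.91-fold and 3.20-fold higher in the smaller cluster, at 387 and 336 CPM, and Stab1 2.70-fold and 2.34-fold higher, at 220 and 178 CPM. These were the 3 of 8 members compared that passed 2-fold in that direction in both libraries, beside 2.53% of all genes, and 0 passed it in the other, beside 10.7% (13.2% in either). Lrp1 was 1.87-fold and 1.86-fold higher, and Mertk was lower at 104 and 96.2 CPM against 169 and 198. Axl and Pros1 differed by at most 1.25-fold in either library. The part that the lesion macrophage markers play in these differences was not tested. The smaller cluster was itself uneven. At the finer clustering, looked at after its values were seen, 33 and 27 of its cells (median 29440 UMIs) held Gas6 at 530 and 392 CPM, Msr1 at 201 and 84.8, Stab1 at 294 and 231 and Lrp1 at 424 and 381. A further 56 and 70 of its cells (median 2930.5 UMIs) held Gas6 at 125 and 180 CPM, Msr1 at 34.95 and 17.96 from 7 and 5 UMIs, and Stab1 at 79.9 and 57.5. The deeper group thus carried 156 of the 230 and 84 of the 140 Msr1 UMIs of the whole microglia-like class. Without it, 5 of 9 members were 2-fold apart between microglia-like and lesion macrophage-like cells, with Msr1 and Lrp1 joining on the lesion side, and Gas6 joined those higher in border-associated than in microglia-like cells. The share of all genes between microglia-like and lesion macrophage-like cells was 22.9% with the whole class. It was not computed without the deeper group.

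**Figure D4:**
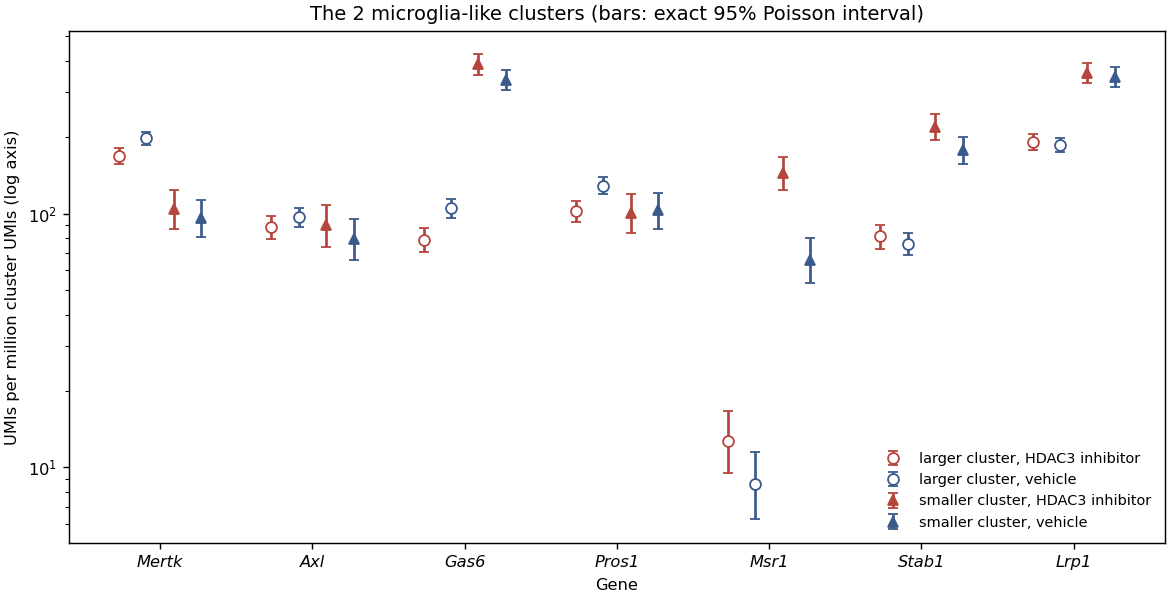
Level of 7 genes (y axis, CPM, log axis) in the larger (open circles) and the smaller (filled triangles) microglia-like cluster, with red for the HDAC3 inhibitor library, blue for vehicle and bars for exact 95% Poisson intervals. Triangles lie far above circles for Msr1, Gas6 and Stab1 and below them for Mertk, in both libraries.

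Within the border-associated class, the group with dendritic cell markers that the finer clustering set apart held 0 UMIs of Mertk, Gas6, Msr1 and Mrc1 in its 24 and 11 cells. The remaining 88 and 38 cells therefore had higher levels, with Mrc1 at 658 and 843 CPM, Stab1 at 316 and 350, Gas6 at 299 and 359, Msr1 at 118 and 156, and Mertk at 63.2 and 94.6. The upper ends for those 0 counts were 13.6 and 22.1 CPM. With the remaining cells alone, the Mertk difference from microglia-like cells was under 2-fold in at least 1 library and Stab1 passed 2-fold over lesion macrophage-like cells.

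Between the libraries, Msr1 was the member that differed in microglia-like and lesion macrophage-like cells. A gene was counted here when its ratio was at least 1.5-fold in either direction. In lesion macrophage-like cells Msr1 was at 71.0 and 39.6 CPM (900 and 290 UMIs), a ratio of 1.79 (1.57 to 2.05), and it was the 1 of 9 members counted, beside 9.13% of all genes (5.36% in this direction). In microglia-like cells it was at 43.2 and 21.2 CPM (230 and 140 UMIs), a ratio of 2.03 (1.64 to 2.53), and it was the 1 of 8 counted, beside 8.67% of all genes (3.93% in this direction). In the smaller microglia-like cluster the Msr1 ratio was 2.21 (1.71 to 2.86), beside 19.1% of all genes past 1.5-fold there, and in the larger cluster 1.48 (0.971 to 2.26), under the threshold that 9.23% of all genes passed. Without the 33 and 27 deeper cells of the smaller cluster, the ratio over the microglia-like class was 1.63 (1.13 to 2.34) for Msr1, from 74 and 56 UMIs. Share of cells followed the same direction after thinning, 14.9% and 8.37% in lesion macrophage-like cells and 5.22% and 1.30% in microglia-like cells.

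In border-associated macrophage-like cells Msr1 was at 93.5 and 114 CPM (120 and 71 UMIs), a ratio of 0.818 (0.605 to 1.11), and 0 of 9 members were counted, beside 23.1% of all genes. Cells assigned by their own markers gave 2 members, Msr1 and Lrp1, both lower, and the share of all genes was not computed for them. In monocyte-like cells the Msr1 ratio was 1.29 (0.804 to 2.05). The higher Msr1 of the HDAC3 inhibitor library was thus counted in the 2 larger macrophage classes and not in these smaller ones, whose intervals hold 1. Whether the ratios differ between classes was not tested.

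**Figure D5:**
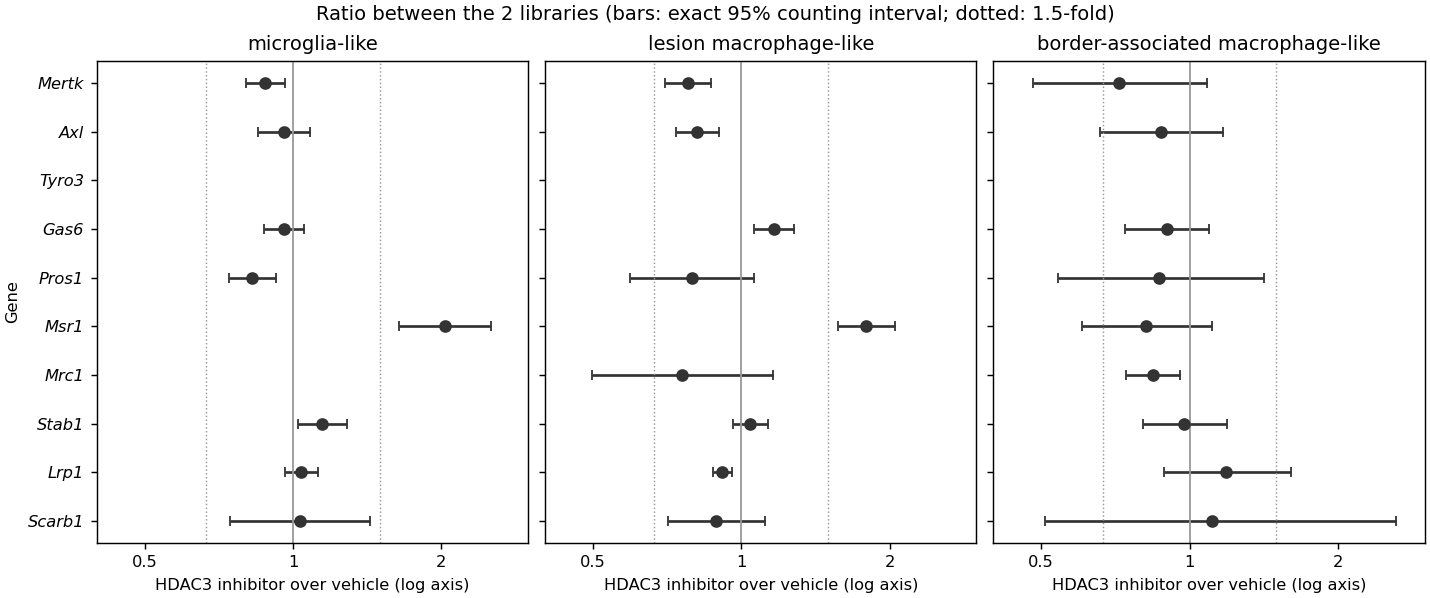
Ratio of HDAC3 inhibitor to vehicle (x axis, log scale) for each member with at least 20 UMIs (y axis) in the 3 macrophage classes, with points for ratios, bars for exact 95% counting intervals and dotted lines at 1.5-fold. Msr1 is the one point beyond the dotted lines, at 2.03 and 1.79 in the left and middle panels, and lies at 0.818 in the right one.

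Over whole classes the other members stayed closer together. Mertk was lower in the HDAC3 inhibitor library in all 3 classes without reaching 1.5-fold, with ratios of 0.879 (0.803 to 0.962) in microglia-like, 0.780 (0.701 to 0.869) in lesion macrophage-like and 0.720 (0.482 to 1.09) in border-associated cells. Within the microglia-like class the Mertk ratio was 0.855 (0.775 to 0.943) in the larger cluster and 1.08 (0.843 to 1.38) in the smaller one. Axl was at 0.814 (0.736 to 0.899) in lesion macrophage-like cells and Pros1 at 0.827 (0.741 to 0.923) in microglia-like cells. Gas6 stood at 0.960 (0.744 without the deeper group of microglia-like cells), 1.17 and 0.899, Stab1 at 1.15, 1.04 and 0.977, Lrp1 at 1.04, 0.914 and 1.19, and Scarb1 at 1.04, 0.889 and 1.11 in the same order of classes. The lesion macrophage-like value of Stab1 joined groups of the finer clustering that ran opposite ways. Stab1 was at 141 and 187 CPM in the group of 267 and 130 cells. It was at 115 and 74.9 CPM in the group of 258 and 121 cells. This split was looked at after the class values were seen. Mrc1 in border-associated cells had a ratio of 0.843 (0.742 to 0.958). The median log2 ratio of the members compared was -0.0040 in microglia-like cells, beside -0.017 over all genes, -0.17 in lesion macrophage-like cells, beside 0.02, and -0.19 in border-associated cells, beside 0.05.

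In the other classes the counts were small. Mrc1 in monocyte-like cells was at 91.1 and 8.18 CPM, from 27 UMIs in 4 cells and 5 UMIs in 2 cells, a ratio of 11.1 (4.23 to 37.01), and 1 cell carried 44.4% of the 27. It was the 1 of 5 members counted there, beside 24.9% of all genes. Lrp1 was higher in neutrophil-like cells, 22.7 and 5.15 CPM from 26 and 9 UMIs (ratio 4.41, 2.003 to 10.7, beside 21.1% of all genes), and in oligodendrocyte-like cells, 5.99 and 1.498 CPM from 29 and 5 UMIs (4.002, 1.53 to 13.2, beside 9.11%). Both classes lie far below the 403 and 441 CPM of lesion macrophage-like cells, which had the larger share of cells in the HDAC3 inhibitor library, and the part of free Lrp1 RNA was not tested. Pros1 in Schwann cell-like cells was at 71.1 and 23.3 CPM from 31 and 14 UMIs (3.05, 1.57 to 6.197, beside 20.8%). In ependymal-like, vascular smooth muscle-like and fibroblast-like cells 0 of 4 members were counted in each class, beside 17.7%, 21.6% and 27.3% of all genes. In endothelial-like cells 1 of 7 was counted (Axl, ratio 0.662, beside 8.58%) and in pericyte-like cells 3 of 5 (Mertk 0.454, Pros1 0.615 and Scarb1 1.87, beside 22.5%), and the intervals of these 4 ratios hold 1.

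Related genes of the same pathways were read beside the members, against the 8.67%, 9.13% and 23.1% of all genes past 1.5-fold in microglia-like, lesion macrophage-like and border-associated cells. Of the other phosphatidylserine receptors and bridging proteins, 0 of 7 were at least 1.5-fold apart in microglia-like cells, 0 of 6 in lesion macrophage-like cells and 2 of 7, both lower, in border-associated cells, beside those 8.67%, 9.13% and 23.1%. Those 2, singled out after their values were seen, were Mfge8 (ratio 0.484, 0.207 to 1.13) and the lipid receptor Cd300lb (0.532, 0.277 to 1.03). Itgb5, a subunit of an integrin that binds bridged dying cells, was at 694 and 766 CPM in microglia-like cells and at 358 and 403 in lesion macrophage-like cells. Mfge8, the bridging protein of that integrin, ran against Pros1, at 165 and 125 CPM in lesion macrophage-like cells and 15.8 and 22.2 in microglia-like cells. The lipid-binding inhibitory receptor Cd300a was at 236 and 261 CPM in lesion macrophage-like cells and its relative Cd300lf at 95.3 and 92.7.

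Of the other scavenger receptors, 1 of 6 was counted in microglia-like cells, 3 of 7 in lesion macrophage-like cells and 1 of 5 in border-associated cells, beside 8.67%, 9.13% and 23.1% of all genes. Olr1, the oxidised LDL receptor LOX-1, was lower in the inhibitor library's microglia-like cells, at 21.8 and 42.0 CPM (ratio 0.518, 0.413 to 0.646). This was opposite to Msr1 over the same class, and whether the same cells held both genes was not examined. The Olr1 ratio was 1.53 (0.9997 to 2.39) in lesion macrophage-like cells. Colec12 was lower in lesion macrophage-like cells (3.94 and 6.01 CPM, ratio 0.657, 0.429 to 1.01) and in border-associated cells (32.7 and 56.3 CPM, ratio 0.581, 0.362 to 0.937). Scarf1 was at 3.39 and 2.18 CPM in lesion macrophage-like cells, a ratio of 1.55 (0.857 to 2.95). Cd36, a fatty acid and oxidised LDL receptor, was at 117 and 87.2 CPM there, a ratio of 1.34 (1.22 to 1.48), and Cd68, Scarb2 and Cxcl16 had ratios between 0.835 and 1.33 in the 3 classes.

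Relatives of Lrp1 and their chaperone were read in the same way, by their values. Lrp10 was higher in border-associated cells (56.9 and 29.0 CPM, ratio 1.96, 1.16 to 3.49). Lrpap1, the chaperone that escorts Lrp1 to the surface, was at 319 and 242 CPM in lesion macrophage-like cells, a ratio of 1.32 (1.25 to 1.40), where Lrp1 itself was at 0.914. Lrp6 and Lrp12 had ratios between 0.726 and 1.20. Mrc2 was the mannose receptor relative with enough UMIs, in microglia-like cells, at 8.82 and 10.3 CPM, while Pla2r1 and Ly75 had under 20 UMIs in each class.

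Of the engulfment machinery inside the cell, 0 of 9 genes were counted in microglia-like cells, 0 of 9 in lesion macrophage-like cells and 1 of 9 in border-associated cells, beside 8.67%, 9.13% and 23.1% of all genes. That gene was the adaptor Crk, at 55.3 and 91.8 CPM (ratio 0.603, 0.419 to 0.870). The GTPases Rac1, Rac2 and Rhog had ratios between 0.692 and 1.13 and the mitochondrial carrier Ucp2 between 0.998 and 1.04. Of the genes for maturation, shedding and feedback of the TAM system, 0 of 9, 1 of 10 and 2 of 6 were counted, beside the same shares. Socs3, a feedback inhibitor of cytokine signalling, was higher in lesion macrophage-like cells (33.8 and 20.8 CPM, ratio 1.63, 1.35 to 1.98) and lower in border-associated cells (141 and 229 CPM, ratio 0.617, 0.492 to 0.774). Lgals3, a galectin that can act as a Mertk ligand, was higher in border-associated cells (1030 and 657 CPM, ratio 1.57, 1.40 to 1.76), beside lesion macrophage-like levels of 3954 and 3601 CPM. In the same border-associated cells the 10 lesion macrophage markers summed to 3500 and 2267 CPM, with Gpnmb at 81.8 and 17.7, Fabp5 at 167 and 70.8 and Fn1 at 149 and 20.9, and the microglia markers to 1434 and 2027. Their part in the values of the border-associated class was not tested. The sheddases Adam10 and Adam17 had ratios between 0.848 and 1.06.

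The genes whose pattern over the classes was most like each member were found by Pearson r of log2(CPM + 5) over 24 sums, 12 classes in 2 libraries, among 11685 genes. The 2 sums of a class share its cell type, so r describes a pattern and carries no p. Msr1 was nearest to 3 neighbours of the membrane-spanning 4A family, Ms4a6d (r = 0.986), Ms4a6b (0.980) and Ms4a6c (0.973), whose sequences are alike and whose counts may be split between them. Mrc1 was nearest to Mgl2 (0.976), Fcna (0.967) and Ccl8 (0.949), and Stab1 to Tnfrsf11a (0.963), Plxna4os1 (0.918) and Ctla2b (0.910). Tyro3 was nearest to Tex52 (0.989), B3gat1 (0.989) and Gm4593 (0.988). Mertk was nearest to Atf3 (0.889), Camk1 (0.863) and Lamtor3 (0.849), and Axl to Fblim1 (0.861), Adap2 (0.843) and Zfp385a (0.832). Lrp1 was nearest to Asph (0.900), Zfp385a (0.895) and Lgals1 (0.845), so that Zfp385a stood near both Axl and Lrp1, whose r with each other was 0.757. Gas6 was nearest to Pmepa1 (0.881), Pgpep1 (0.837) and Sfmbt1 (0.832), Pros1 to Tmem176b (0.848), Il6st (0.839) and Anapc10 (0.838), and Scarb1 to Pak1ip1 (0.850), Foxp1 (0.842) and Ripor1 (0.839). Between members, r of the receptor Mertk was 0.43 with the ligand Gas6 and 0.37 with Pros1.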

How the data were processed

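The deposited matrices hold raw UMI counts per barcode and gene, made by the authors; per the file headers the software was Cell Ranger 3.0.2, and the submitters' processing notes name mm10, Cell Ranger and Seurat. How reads matching several genes and reads of overlapping genes on opposite strands (Gm14011 with Mertk, Tmem255b with Gas6, Nt5dc2 with Stab1, Gm16217 with Lrp1) were assigned is not stated in the labels or headers. Barcodes with under 500 genes, under 1000 UMIs or over 15% mitochondrial UMIs (448 of 3423 and 353 of 2523) and 21 and 6 Scrublet doublets (scanpy 1.11.5) were left out. Scrublet marked few barcodes, so cells with markers of 2 unrelated classes were also left out as an alternative. On 2000 variable genes without the members, 30 principal components and 20 neighbours, leidenalg 0.10.2 (resolution 1) gave clusters named from marker lists: mean log2 CPM over the median cluster of at least 2.5, 0.5 above the next list, 3 markers of at least 20 CPM. Clusters of mixed or cycling cells stayed unnamed, and these thresholds were set after the clusters were seen. Class sums gave CPM. Intervals (95%) were exact Poisson for CPM and conditional binomial for ratios. Genes with at least 20 UMIs were compared, and the interval code was tested on simulated data. No test between groups was made. Alternatives covered cell filters, doublets, clustering, class assignment, weighting, thinning, totals, centring and thresholds. Cells of at least 2000 UMIs were thinned to 2000 for shares of cells. Named besides the members were the 4 most abundant of each pathway list in the macrophage classes, list genes at least 1.5-fold apart with 50 UMIs, and the 3 genes nearest in pattern. Coordinates are GENCODE M21 (GRCm38). The members and lists were chosen with earlier results of these data known. For 1 pathway list, counts over the list are not reported here.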

Additional observations from a re-analysis of the deposited data

Results flagged for a closer look

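The Msr1 ratio between the libraries lay on opposite sides of 1 in different macrophage classes. It was 2.03 in microglia-like cells and 1.79 in lesion macrophage-like cells, and 0.818 in border-associated macrophage-like cells, where the interval of 0.605 to 1.11 holds 1. The difference between the classes was not tested, since each group is 1 library.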

How the results depend on the processing

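No paired analysis was possible because each group is 1 library. No member's counted difference changed direction under any alternative run, and 627 single values stayed within their counting interval while 99 left it. The 627 include values under the 100-UMI minimum, which could not move because that setting keeps the same sums. For ratios between classes, the interval was the mean of the bounds of the 2 libraries, which is wider than that of a mean ratio. Members counted between the libraries numbered 0 in the larger microglia-like cluster alone, 0 in lesion macrophage-like cells at a 2-fold threshold, and in border-associated cells 2 with each cell's class from its own markers (Msr1 and Lrp1, with Lrp1 at a log2 ratio of -0.74 against 0.25) and 1 with each cell weighted alike (Scarb1). Members counted between microglia-like and lesion macrophage-like cells numbered 5 with classes from own markers, 5 with each cell weighted alike, 5 with the larger microglia-like cluster alone, 5 without the deepest finer group of microglia-like cells and 1 at a 4-fold threshold. At 4-fold, 1 also remained for each comparison with border-associated cells. Shares of all genes under these alternatives were not computed, apart from the 9.23% for the larger microglia-like cluster between the libraries. The causes of these moves were not tested, beyond the threshold itself. The log2 ratio of Msr1 ran from 0.56 to 2.16 in microglia-like cells and from 0.81 to 0.93 in lesion macrophage-like cells over the alternatives. Weighting the 2 microglia-like clusters alike (an alternative added after seeing the data, like leaving out that finer group, the 8 kept cells with barcodes of both libraries and 183 cells with markers of 2 unrelated classes) ended the counts of Mertk and Mrc1 between microglia-like and lesion macrophage-like cells, and of Msr1 and Stab1 between border-associated and microglia-like cells, while Gas6 joined the first comparison and Lrp1 the second. In 14 combinations of a member and a setting (thinning, the 100-UMI minimum or classes from own markers) there were too few UMIs for a value. Among the 3 macrophage classes, border-associated cells, with 1283862 and 621163 UMIs, mostly give the widest intervals, and differences under 1.5-fold there are mostly within them.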
